A study of Rattus norvegicus with 10 samples.

Results

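The genes examined here mark the projection neurons of the striatum, the main input station of the basal ganglia. They are Drd1, Tac1 and Pdyn of the direct pathway, Drd2, Adora2a and Penk of the indirect pathway, and Ppp1r1b, Rgs9 and Pde10a, which both kinds of neuron use. Every probe set that the platform annotation assigns to 1 of these symbols and to no other gene was kept, and each was treated on its own. This gave 14 probe sets of 9 genes, out of 31042 probe sets tested and 14217 genes with a probe set of their own. Drd1, Adora2a, Pde10a, Rgs9 and Pdyn had 2 probe sets each, called brighter and dimmer here by their mean deposited value, and the other 4 genes had 1.

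Each of 10 male Wistar rats aged 7 weeks gave RNA of the right brain, measured on 1 Affymetrix array per rat. In the DMHF group, 5 rats inhaled the vapor of DMHF, a dimethylated hydroxyfuranone with a sweet, strawberry-like odour. In the control group, 5 rats inhaled the vapor of distilled water. The vapor came from 5 mL of liquid in a flask flushed with air. Exposure lasted 5 min and the animals were killed 10 min later, ahead of the dark phase of the light cycle. No other treatment is given in the labels for either group. The striatum was not dissected, so each value is an average over 1 side of the brain, in which fewer cells of a type and less RNA per cell cannot be told apart.

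Projection neurons make up most of the cells of the striatum, and dopamine from the midbrain tunes their response to cortical and thalamic input. Direct pathway neurons carry the D1 dopamine receptor, which raises cAMP, and release substance P and dynorphin. Indirect pathway neurons carry the D2 dopamine receptor, which lowers cAMP, and the adenosine receptor encoded by Adora2a, which raises it, and release enkephalin. In both kinds, the phosphoprotein DARPP-32 turns the cAMP signal into inhibition of a protein phosphatase, PDE10A breaks down cyclic nucleotides, and RGS9 shortens signalling by G proteins.

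The deposited values were taken to be on a log2 scale, and differences between arrays were very small, with a median SD between arrays of 2.20 millionths of a log2 unit. Values are therefore given in millionths of a log2 unit from the mean of the control rats of the same probe set. They rank rats for a given probe set, cannot be turned into fold changes, and were not compared between probe sets, for which the difference divided by the pooled SD within groups is given as well. For the 14 probe sets, the SD over 10 arrays lay between 1.53 and 45.6 millionths, and the mean deposited log2 levels between 6.39 and 10.94. The brain identity of the tissue was checked with 7 general brain genes (Snap25, Syt1, Map2, Rbfox3, Gfap, Mbp and Syp), of which all had a mean at or above the 84.1st percentile of all probe sets. The median deposited value rounded to 7.24 on every array. In millionths the array medians were not level and spanned 15.2, more than the median SD between arrays of 2.20. No pair of arrays was identical, and the first principal component held 21.3% of the variance.

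The region around the transcription start, from 250 bases before it to 50 bases after it, is shown for 5 of the genes. They were chosen after the values were seen, because they differed in the data below. By their brightest probe sets, Drd1, Drd2 and Rgs9 moved together between rats, while Tac1 and Pde10a followed them less closely. The split is not clean, as Pde10a had a Pearson r of 0.682 with Rgs9, against 0.430 with Drd1 and 0.355 with Drd2. The sequences are those of RefSeq on rat assembly GRCr8, in which 6 of the 9 genes had an entry, Pde10a with 2. Penk, Adora2a and Ppp1r1b are named only. Capitals mark matches, on either strand, to 5 motifs. The core of the cAMP response element was searched with the letters TGACG. A variant of the whole element was searched with TGCGTCA. The letters CACGTG stood for the E-box, the letters TATAAA for the TATA box, and the letters GGGCGG for the GC box.
Drd1, chr17:10546354-10546653, plus strand: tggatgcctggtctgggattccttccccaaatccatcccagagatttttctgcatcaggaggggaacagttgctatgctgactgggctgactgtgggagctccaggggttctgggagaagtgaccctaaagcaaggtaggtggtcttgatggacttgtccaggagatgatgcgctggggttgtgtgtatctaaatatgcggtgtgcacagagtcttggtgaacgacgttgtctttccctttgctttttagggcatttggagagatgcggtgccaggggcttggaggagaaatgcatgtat
Drd2, chr8:58605153-58605452, plus strand: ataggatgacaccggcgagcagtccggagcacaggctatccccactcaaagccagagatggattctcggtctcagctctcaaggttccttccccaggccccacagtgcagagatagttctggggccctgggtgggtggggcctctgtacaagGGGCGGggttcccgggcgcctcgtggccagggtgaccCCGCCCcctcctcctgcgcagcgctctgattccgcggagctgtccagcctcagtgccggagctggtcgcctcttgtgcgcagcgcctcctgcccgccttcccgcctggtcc
Rgs9, chr10:94770338-94770637, minus strand: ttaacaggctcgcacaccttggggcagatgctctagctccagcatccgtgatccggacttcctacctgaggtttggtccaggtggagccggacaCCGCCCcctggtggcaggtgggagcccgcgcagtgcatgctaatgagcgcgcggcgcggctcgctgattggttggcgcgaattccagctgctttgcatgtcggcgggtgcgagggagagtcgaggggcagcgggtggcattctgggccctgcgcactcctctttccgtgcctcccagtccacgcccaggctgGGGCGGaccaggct
Tac1, chr4:36645333-36645632, plus strand: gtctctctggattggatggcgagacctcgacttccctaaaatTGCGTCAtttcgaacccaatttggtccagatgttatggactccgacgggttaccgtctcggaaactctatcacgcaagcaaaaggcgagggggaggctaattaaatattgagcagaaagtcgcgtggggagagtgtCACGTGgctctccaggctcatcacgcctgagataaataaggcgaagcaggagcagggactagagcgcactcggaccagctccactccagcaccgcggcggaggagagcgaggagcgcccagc
Pde10a, chr1:54765619-54765918, minus strand: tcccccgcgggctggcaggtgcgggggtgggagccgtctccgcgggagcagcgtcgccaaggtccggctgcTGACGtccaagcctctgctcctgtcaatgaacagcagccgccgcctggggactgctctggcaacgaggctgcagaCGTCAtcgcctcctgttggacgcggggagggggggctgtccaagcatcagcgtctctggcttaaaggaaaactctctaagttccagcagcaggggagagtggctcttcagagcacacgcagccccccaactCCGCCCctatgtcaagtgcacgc

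The Drd1 window held none of the motifs. The Drd2 and Rgs9 windows held 2 GC boxes each, a motif found in 33.1% of the 33469 windows of all genes. In Tac1, the element variant began at position -208 from the start and overlapped a core on the other strand, and the E-box began at position -72. Of all windows, 1.9% held the variant, 21.2% held the core and 6.42% held this E-box. The Pde10a window shown held 2 element cores and 1 GC box, and the other Pde10a window held 2 GC boxes. The full element TGACGTCA, present in 1.83% of windows, was in none of the windows of these genes, and Pdyn alone among them held the TATA box, which 14.2% of windows hold. These matches describe letters and do not show binding.

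The first question was whether inhaling DMHF was followed by a change in these genes. In this comparison none of the 14 probe sets passed the test. DMHF means were below control means for 12 of the 14 probe sets, against 46.8% of all probe sets, and for 9 of 9 genes when each was represented by its brightest probe set, against 47% of all genes. For 13 of the 14 the difference was under 1 SD of the rats within groups, and for the dimmer Pdyn probe set it was -1.20 SD. The 2 groups overlapped for 14 of 14 probe sets, where 0.867% of all probe sets had groups that did not overlap.

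Among the direct pathway genes, Drd1 encodes the D1 receptor itself. Its brighter probe set stood at -31.0, 20.5, 5.24, -4.21 and -41.0 millionths in DMHF rats 1 to 5, and at -13.0, -3.71, -8.80, -4.01 and 29.5 millionths in control rats 1 to 5. The lowest and the next lowest rats had inhaled DMHF, the highest was a control, and the second highest again had inhaled DMHF. The difference was -10.1 millionths (SE 13.0, limma, n = 5 per group), or -0.47 within-group SD, and it was -2.38 millionths without DMHF rat 5 and -2.74 without control rat 5. The dimmer Drd1 probe set ran from -2.72 to 3.21 millionths in DMHF rats (median 0.27) and from -2.57 to 1.77 in control rats (median 0.86). Its difference had the opposite sign, 0.53 millionths (SE 1.25), and the sign of both lay well within the error.

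Tac1 encodes the precursor of substance P. It stood at 2.30, 1.86, -5.40, -6.92 and -2.27 millionths in DMHF rats, against 1.26, 4.82, -9.70, 1.71 and 1.92 millionths in control rats. Control rat 3 was the lowest of all 10, and the other 4 control rats lay among the upper 6 rats. The difference was -2.09 millionths (SE 2.98).

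Pdyn encodes the precursor of dynorphin. Its dimmer probe set gave -8.85, -3.94, -8.66, -8.49 and -2.36 millionths in DMHF rats, against 3.46, 4.95, -0.20, 3.71 and -11.9 millionths in control rats. All 5 DMHF rats were below 4 of the control rats, and control rat 5 was below all of them. With a difference of -6.46 millionths (SE 3.24), or -1.20 within-group SD, this was the largest of the 14 in SD units and the 1 that exceeded 1 SD. It had the smallest p as well, with an unadjusted limma p of 0.0776, an exact permutation p of 0.103 and an adjusted limma p of 0.931. The brighter Pdyn probe set ran from -7.60 to 6.12 millionths in DMHF rats (median -2.17) and from -5.26 to 11.7 in control rats (median -1.13). Its difference was -1.52 millionths (SE 3.69), or -0.25 SD.

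In the indirect pathway, Drd2 encodes the D2 receptor, which is also made by midbrain dopamine neurons. It stood at -15.5, 9.27, 0.84, -13.0 and -21.2 millionths in DMHF rats, against -22.5, -4.82, 1.22, 8.80 and 17.3 millionths in control rats. Both ends of the order, the lowest and the highest rat, were controls. The difference was -7.92 millionths (SE 8.36), or -0.57 SD.

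Adora2a encodes the adenosine receptor of these neurons, which in the brain is concentrated in the striatum. Its brighter probe set stood at -11.2, 8.34, 5.15, -8.32 and 3.43 millionths in DMHF rats, against -14.2, -6.32, 6.30, 0.74 and 13.5 millionths in control rats, and the groups covered almost the same span. Its difference of -0.525 millionths (SE 5.89) was the smallest of the 14 in SD units, -0.05 SD. Its dimmer probe set ran from -3.45 to 4.08 millionths in DMHF rats (median 0.39) and from -3.24 to 3.41 in control rats (median -0.03), a difference of 0.39 millionths (SE 1.81).

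Penk, which encodes the enkephalin precursor, had values of -2.03, 7.64, 2.05, -7.87 and -7.52 millionths in DMHF rats, against -2.79, -1.16, -3.72, 5.09 and 2.58 millionths in control rats. The DMHF rats held both the highest value and the 2 lowest, so they spread wider (SD 6.58) than the controls (SD 3.73). The difference was -1.55 millionths (SE 3.22).

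Of the shared genes, Ppp1r1b encodes DARPP-32. It stood at -32.1, 11.7, 10.2, -13.1 and -22.6 millionths in DMHF rats, against -25.7, -18.9, 4.76, 21.1 and 18.8 millionths in control rats. The 2 highest rats were controls and the lowest had inhaled DMHF, with the rest interleaved. The difference was -9.17 millionths (SE 12.4), or -0.45 SD.

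Rgs9 encodes the striatal regulator of G protein signalling. Its brighter probe set had -7.23, 1.16, 2.23, -8.05 and -6.19 millionths in DMHF rats, against -2.90, -5.54, -2.71, 3.69 and 7.46 millionths in control rats. DMHF rats 1, 4 and 5 lay below every control rat, and the 2 highest rats were controls. The difference was -3.61 millionths (SE 3.10), or -0.70 SD. The dimmer probe set ran from -2.29 to 0.30 millionths in DMHF rats (median -0.63) and from -1.29 to 3.20 in control rats (median -0.50), with a difference of -1.02 millionths (SE 0.939).

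Pde10a encodes the phosphodiesterase. Its brighter probe set stood at -52.7, -44.5, 34.4, -11.1 and -2.51 millionths in DMHF rats, against 2.46, -39.9, -66.0, 20.5 and 82.9 millionths in control rats. The dimmer probe set stood at -41.8, -42.9, 36.7, 18.1 and 11.9 millionths in DMHF rats, against -6.28, -23.9, -68.2, 27.1 and 71.2 millionths in control rats. In both, control rat 3 was the lowest and control rat 5 the highest, so that the controls enclosed all DMHF rats. The differences were -15.3 millionths (SE 28.7) and -3.60 millionths (SE 27.2).

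**Figure D1:**
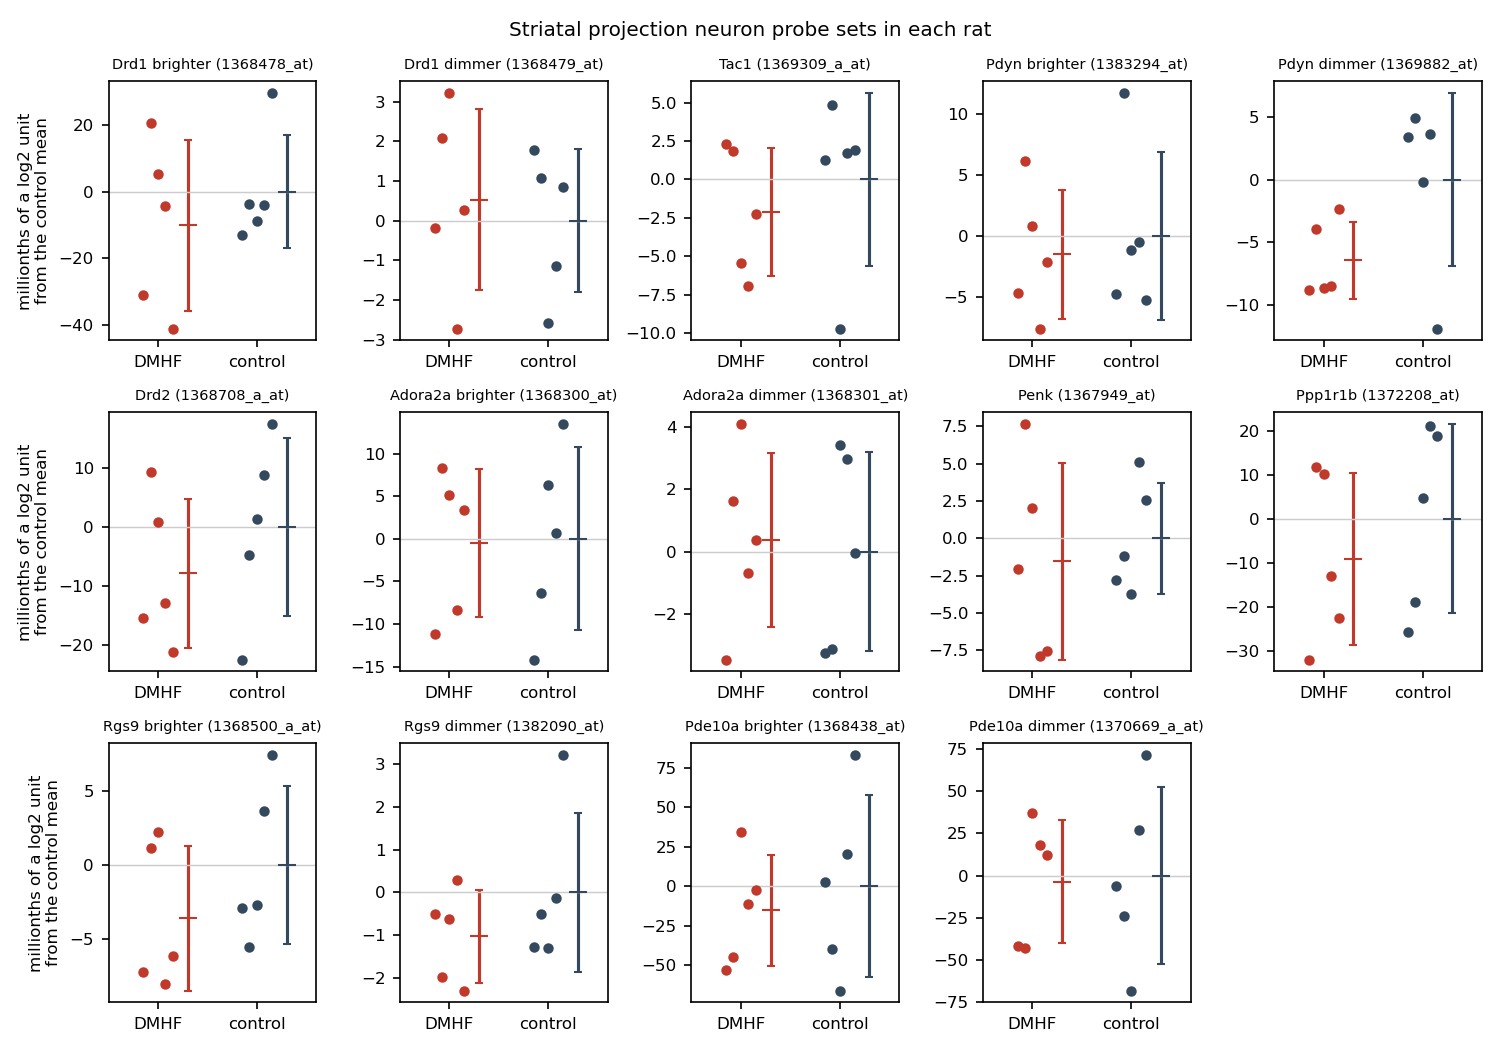
Values of the 14 probe sets in each rat, in millionths of a log2 unit from the control mean (vertical axes, a scale per panel), for 5 DMHF rats (red, left) and 5 control rats (blue, right). Points are rats, the horizontal tick is the group mean and the bar the SD; the groups overlap in 14 of 14 panels.

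The test was limma's, fitted over all 31042 probe sets with Benjamini-Hochberg adjustment. It called 0 probe sets, 0% of those tested, and 0 of the 14. Adjusted limma p values of the 14 ran from 0.931 to 0.9996. Without adjustment, 1700 probe sets (5.48%) had a limma p under 0.05 (698 or 2.25% lower in DMHF and 1002 or 3.23% higher) and 1594 (5.13%) an exact permutation p under 0.05, and in both cases 0 of the 14 were among them. The exact test over all assignments of the 10 arrays to the groups also called 0 after adjustment, with 0.00794 as the smallest p it allows. The median difference over the 14 was -0.37 within-group SD, where the median over all probe sets was 0.05 SD and their SD 0.75. The 14 differences are not independent of each other, because the same rats were high or low in several of these genes.

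The second question was whether rats high in 1 of these genes were high in the others. By their brightest probe sets, Drd1, Drd2, Adora2a, Penk, Ppp1r1b and Rgs9 varied together from rat to rat. Tac1, Pdyn and Pde10a did not follow them closely. DMHF rats 1, 4 and 5 and control rats 1 and 2 were below the mean of the 10 rats in most of the 6. DMHF rats 2 and 3 and control rats 4 and 5 were above it in most, and control rat 3 was mixed. These 6 were picked after the values were seen, so what follows on them as a set is a description. Over the 15 pairs of their brightest probe sets, Pearson r over 10 rats lay between 0.464 and 0.920 with a median of 0.77. Over the other 21 pairs of the 9 genes the median was 0.212. The dimmer Drd1 probe set had an r of 0.090 with Drd2 and 0.053 with Ppp1r1b. For the dimmer Rgs9 probe set these were 0.514 and 0.380, and for the dimmer Adora2a probe set 0.565 and 0.788.

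**Figure D2:**
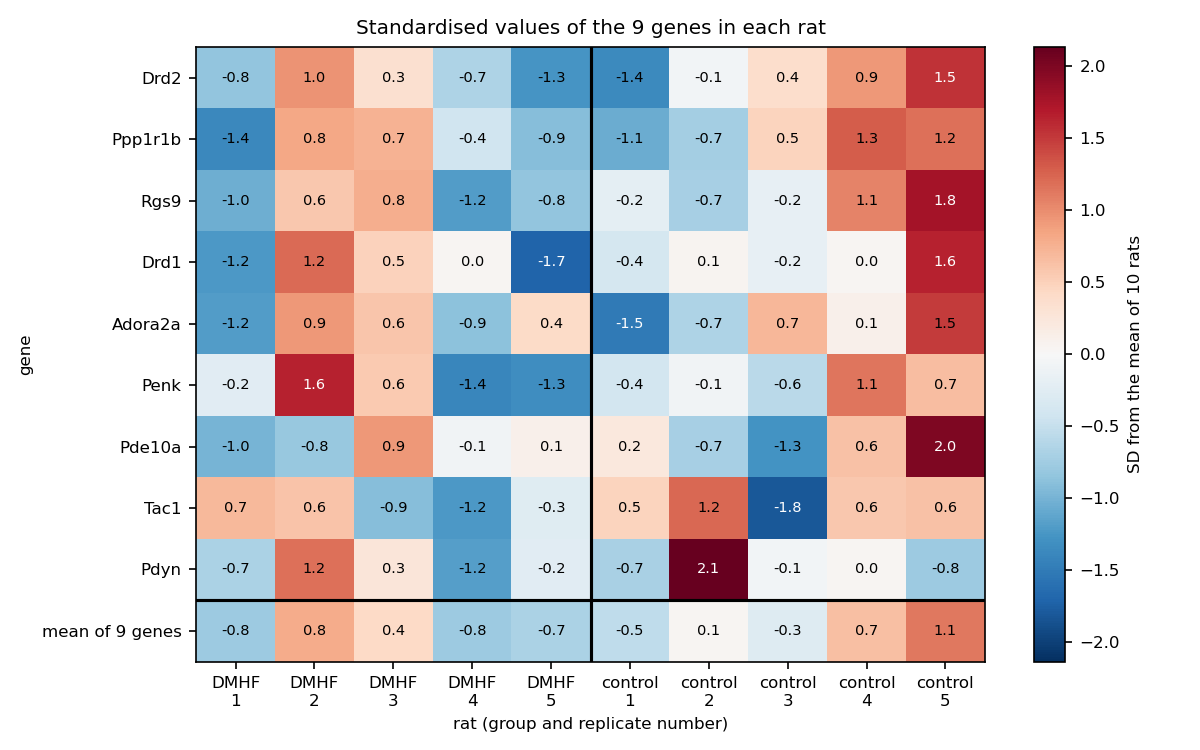
Brightest probe set of each of the 9 genes (rows) in each of the 10 rats (columns, DMHF 1 to 5 left and control 1 to 5 right), in SD from the mean of the 10 rats, with the mean of the 9 genes in the bottom row. Most columns run mainly red or blue through the upper 6 rows. Control rat 3 is mixed, DMHF rat 5 differs in sign for Adora2a, and DMHF rat 4 and control rat 2 differ for Drd1. The bottom row spans -0.78 to 0.79 in DMHF rats and -0.54 to 1.12 in control rats.

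Over all 91 pairs of the 14 probe sets, 72 had an r above 0. An r of at least 0.7 was found for 15 pairs (16.5%), against 1.91% of all pairs of probe sets on the array, and of at least 0.8 for 5 pairs (5.49%), against 0.499%. The 15 include the same-gene pairs of Pde10a and Adora2a, and 9.35% of same-gene pairs on the array reached 0.7. The background was not matched for level or spread, and 12 of the 14 probe sets had a mean above the median of all probe sets. A two-sided permutation test with 100000 resamples, adjusted over the 91 pairs, called 2 pairs (2.2%). Both were also called by Spearman's rho and after the group means had been removed.

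The first was Drd2 with Ppp1r1b, which encode the D2 receptor and DARPP-32. Their r was 0.920 (permutation p = 0.00056, adjusted 0.0255) and their rho 0.903 (p = 0.00098, adjusted 0.0446). With the group means removed r was 0.916 (exact permutation within groups over 14400 arrangements, p = 0.000833, adjusted 0.0379). Without the 2 rats farthest from the median of Drd2 it was 0.904, and with any single rat left out it lay between 0.910 and 0.945. With 9 rats the adjusted permutation p no longer passed without DMHF rat 2 (0.0509), DMHF rat 3 (0.051), control rat 3 (0.0819) or control rat 5 (0.0966). Of all other probe sets on the array, 0.0129% had an r this high with Drd2.

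The other pair was the 2 probe sets of Pde10a, with r = 0.963 (permutation p = 2e-05, adjusted 0.00182) and rho = 0.939 (p = 0.00022, adjusted 0.02). With the group means removed r was 0.972 (exact p = 0.000278, adjusted 0.0253). It was 0.934 without the 2 rats farthest from the median, and 0.950 to 0.981 with any single rat left out.

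**Figure D3:**
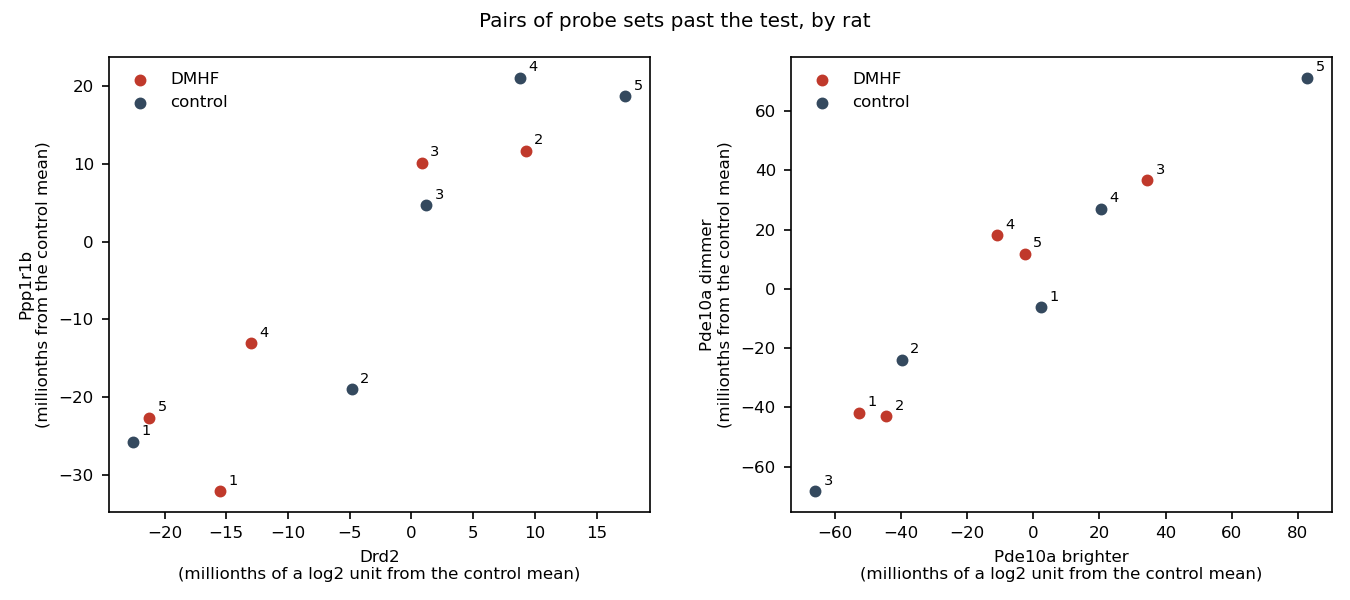
Left, Ppp1r1b against Drd2, and right, the 2 probe sets of Pde10a against each other, each point a rat with its replicate number (DMHF red, control blue), both axes in millionths of a log2 unit from the control mean. Rats of both groups lie along the same rising line, with r = 0.920 on the left and r = 0.963 on the right.

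The next 3 pairs missed the threshold narrowly. Ppp1r1b with the brighter Rgs9 probe set had r = 0.870 (permutation p = 0.00197, adjusted 0.0535) and rho = 0.818 (p = 0.0056, adjusted 0.105). The brighter Drd1 probe set with Drd2, the 2 dopamine receptors of opposite effect on cAMP, had r = 0.834 (permutation p = 0.00235, adjusted 0.0535) and rho = 0.830 (p = 0.00469, adjusted 0.105). Drd2 with the brighter Rgs9 probe set had r = 0.837 (permutation p = 0.00339, adjusted 0.0617) and rho = 0.770 (p = 0.0122, adjusted 0.141). Without the 2 rats farthest from the median of the gene named first, r was 0.828, 0.685 and 0.871 in these pairs. After quantile normalization the r of Drd2 with the brighter Rgs9 probe set was 0.218.

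By pathway, the median r was 0.77 among the 3 indirect pathway genes, 0.212 among the 3 direct pathway genes and 0.434 between genes of different pathways, each over the brightest probe sets and given without a test. Within the direct pathway the brighter Drd1 probe set had an r of 0.12 with Tac1 (permutation p = 0.747, rho 0.261) and 0.212 with the brighter Pdyn probe set (p = 0.559, rho 0.309). Within the indirect pathway Drd2 had an r of 0.774 with Penk (permutation p = 0.00958, adjusted 0.093, rho 0.721) and 0.770 with the brighter Adora2a probe set (p = 0.0123, adjusted 0.093, rho 0.818). The lowest r of all 91 was -0.562, between Tac1 and the dimmer Adora2a probe set (permutation p = 0.0926, adjusted 0.386, rho -0.552). In all, 19 pairs had an unadjusted permutation p under 0.05.

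**Figure D4:**
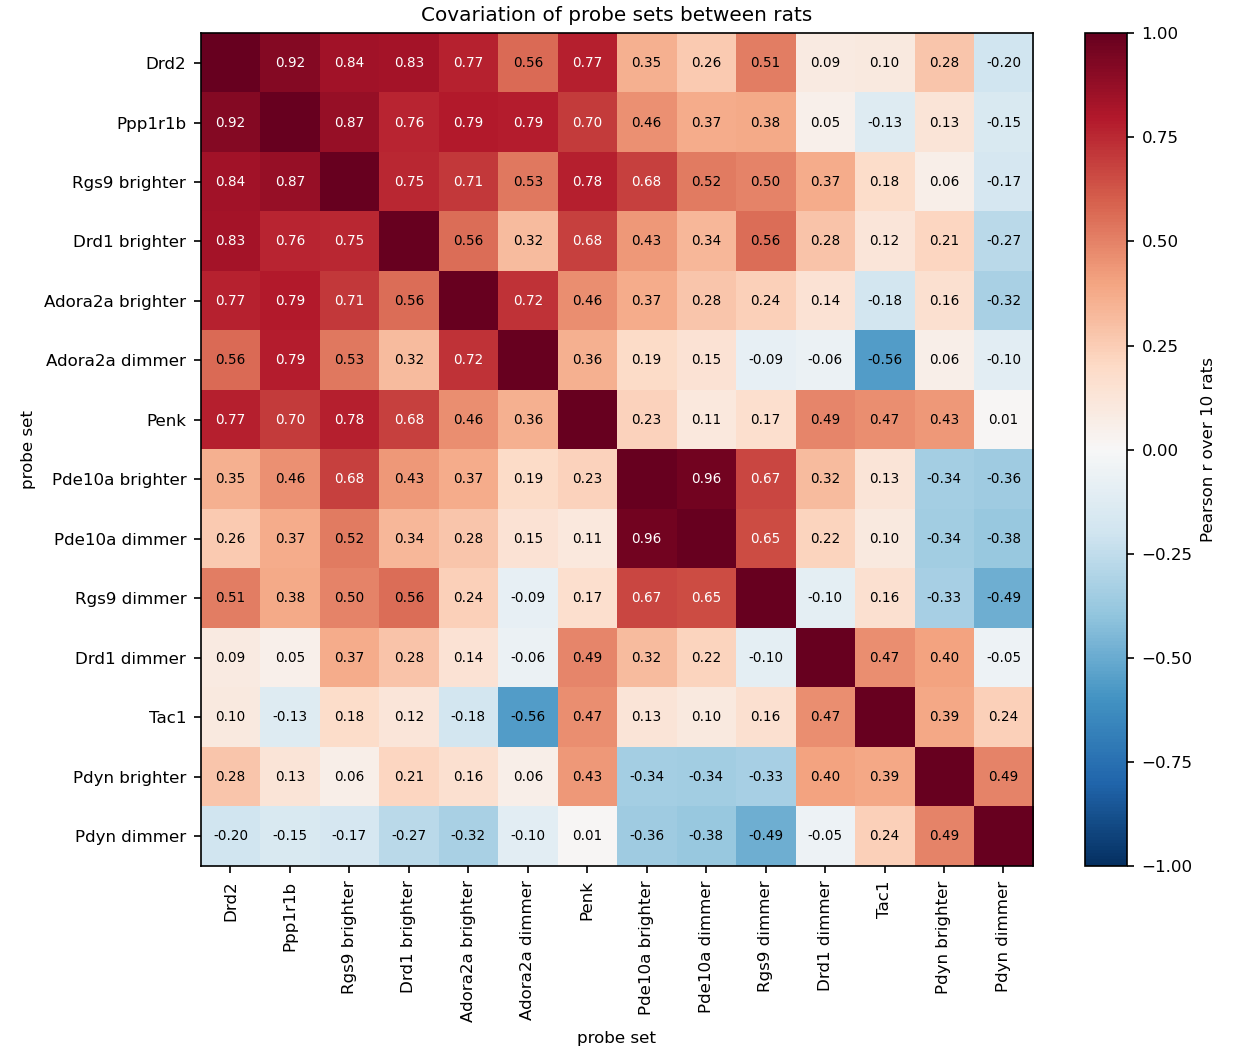
Pearson r over the 10 rats for each of the 91 pairs of the 14 probe sets, rows and columns in the same order. The upper left block, from Drd2 to Penk, holds the pairs with the highest r apart from the 2 Pde10a probe sets (0.96), and the lower right rows of Tac1 and Pdyn reach -0.56.

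Probe sets of 1 gene did not always rank the rats alike. After Pde10a at 0.963, r was 0.723 for Adora2a (permutation p = 0.0229, adjusted 0.154, rho 0.685), 0.498 for Rgs9 (p = 0.137, rho 0.164), 0.495 for Pdyn (p = 0.148, rho 0.479) and 0.283 for Drd1 (p = 0.427, rho 0.430). Over all 9597 pairs of probe sets of 1 gene on the array the median r was 0.207, and 9.35% reached 0.7. The Rgs9 value rested on control rat 5, the highest in both probe sets, and was -0.081 without it. The brighter Pde10a with the brighter Rgs9 probe set (r = 0.682, permutation p = 0.0287, adjusted 0.154, rho 0.564) also leaned on that rat and was 0.440 without it.

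To ask which other genes followed the same rats, a profile was formed as the mean over the 9 genes of the standardised values of the brightest probe set. It stood at -0.77, 0.79, 0.42, -0.78 and -0.67 in DMHF rats 1 to 5, and at -0.54, 0.05, -0.28, 0.65 and 1.12 in control rats 1 to 5. DMHF rats 1, 4 and 5 lay below all controls, and DMHF rats 2 and 3 lay among the upper controls. The genes that enter it had an r with it of 0.923 (Drd2), 0.922 (Rgs9), 0.871 (Penk), 0.865 (Ppp1r1b), 0.841 (Drd1), 0.729 (Adora2a), 0.521 (Pde10a), 0.363 (Pdyn) and 0.326 (Tac1). Each is a part of the profile, which raises its r in advance. The dimmer probe sets, which do not enter it, had 0.467 (Adora2a), 0.451 (Rgs9), 0.412 (Drd1), 0.406 (Pde10a) and -0.112 (Pdyn). The r of the profile with the first principal component of the arrays was 0.589 (rho 0.600), and with the second -0.434 (rho -0.273). With the mean standardised value of the array it was -0.139 (rho -0.188). The part of array-wide variation in the profile was not tested.

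Of 20552 eligible probe sets of other genes, 89 (0.433%) had an r of at least 0.8 with the profile, and 119 (0.579%) an r of -0.8 or less. Among all pairs of probe sets on the array 0.499% had an r of at least 0.8. Close followers of the profile were thus about as frequent as between any probe sets. The 12 highest are descriptions of the same 10 arrays, without a test. Dgkb, a kinase of the lipid messenger diacylglycerol that is abundant in striatal neurons, had r = 0.948 (rho 0.939). Camk2a, the neuronal calcium and calmodulin dependent kinase, had r = 0.90, and its other 3 probe sets 0.344 to 0.814. Dapk1, another calmodulin-regulated kinase, had r = 0.915, and its second probe set 0.80. Inf2, a formin that remodels actin, had r = 0.912.

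Thsd4, a matrix protein that binds fibrillin, was the highest of all at r = 0.976, but its second probe set had an r of -0.131. Itga8, an integrin subunit, had r = 0.892, and its second probe set 0.213. The remaining 6 had 1 probe set each: Mettl7b, a methyltransferase, at 0.944, Pnpla1, a lipid enzyme known from skin, at 0.919, Khk, which phosphorylates fructose, at 0.911, Ncr1, a receptor of natural killer cells, at 0.911, Rgr, an opsin-like receptor of the eye, at 0.909, and Sirt7, a nuclear deacylase, at 0.891. Thsd4 and Ncr1 had mean deposited levels of 5.93 and 6.11, where the lowest value in the table was 5.25. The next probe set in the order had an r of 0.890, so the end of the list is not marked by a gap.

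Other genes enriched in striatal projection neurons were described in the same way. Of 25 listed, 22 were measured, and 14 of them (63.6%) had an r of at least 0.5, against 8.91% of 14208 other genes. With each array shifted to a common median, 21 of the 22 did, against 80.4% of the other genes. Their median r was 0.623, where the median of the other genes was -0.032 and their 5th to 95th percentile ran from -0.612 to 0.584. The highest, named after the values were seen, were Pde1b, a phosphodiesterase activated by calmodulin, at 0.884, Bcl11b, a transcription factor of projection neuron differentiation, at 0.836, Rxrg, a retinoid receptor, at 0.832, Kcnip2, a subunit of A-type potassium channels, at 0.760, Rasd2, a small GTPase of the striatum, at 0.736, and Adcy5, the main striatal adenylyl cyclase, at 0.727. Isl1 and Ebf1, transcription factors of the direct pathway lineage, were at -0.306 and -0.561.

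Between DMHF and control rats, 14 of these 22 were lower in mean and 8 higher, a share lower of 63.6% against 47% of all other genes, and 0 passed the limma test. The smallest limma p were those of Isl1, with a difference of 2.30 millionths (SE 0.893, exact permutation p = 0.0476, adjusted limma p 0.876), Meis2, a homeobox factor, with -4.67 millionths (SE 2.87, exact p = 0.159), and Gnal, the G protein alpha subunit through which D1 and adenosine receptors of the striatum raise cAMP, with 2.92 millionths (SE 1.84, exact p = 0.159). Thus the genes with the smallest p in this list did not share a direction.

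Among the signalling partners around DARPP-32, 26 of 27 were measured, with 12 lower and 14 higher in DMHF rats and 0 past the test. Their median r with the profile was 0.168. Prkar2b, a regulatory subunit of protein kinase A, differed by -3.20 millionths (SE 0.985), or -2.005 SD (exact permutation p = 0.0238, adjusted limma p 0.815). Prkar2a, the related subunit, differed the other way by 1.25 millionths (SE 0.496, exact p = 0.0476, adjusted limma p 0.876), and Rgs7bp, an anchor of RGS proteins of the Rgs9 family, by -30.9 millionths (SE 12.6, exact p = 0.0714, adjusted limma p 0.876).

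For the peptides that projection neurons release, 6 of 6 receptors and 7 of 8 precursor-processing genes were measured, again with 0 past the test. Oprm1, the mu opioid receptor, differed by 8.06 millionths (SE 3.70, exact permutation p = 0.0952, adjusted limma p 0.931), followed by the tachykinin receptors Tacr2 at 4.92 (SE 2.79, exact p = 0.135) and Tacr1 at 1.63 (SE 1.29, exact p = 0.238). Of the receptors 2 were lower and 4 higher, and the median r with the profile was 0.012. Among the processing genes 3 were lower and 4 higher, with a median r of 0.047. Pcsk1n, an inhibitor of prohormone convertase, differed by 2.81 millionths (SE 0.937, exact permutation p = 0.0317, adjusted limma p 0.868), Qpct, which forms pyroglutamate ends, by 3.06 (SE 2.28, exact p = 0.262), and Cpd, a carboxypeptidase, by -0.813 (SE 0.814, exact p = 0.333).

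Markers of several other brain regions and cell types, though not of cortex and interneurons, ran against the profile from rat to rat. All 9 measured markers of cerebellar granule and Purkinje cells had an r below 0 (median -0.556), from -0.417 for Pcp2 to -0.805 for Zic1, and so did 7 of 7 thalamus and midbrain markers (median -0.442) and 7 of 7 choroid plexus markers (median -0.442). Among 14208 other genes 47.3% had an r above 0. Markers of a list were measured in the same 10 rats and are not independent of each other. With each list averaged per rat, its r with the profile was -0.675 for cerebellum, -0.563 for thalamus and midbrain and -0.542 for choroid plexus. The list medians lay within the 5th to 95th percentile of the other genes (-0.612 to 0.584). Astrocyte markers had a median of -0.46 with 5 of 7 below 0, and oligodendrocyte markers a median of -0.208 with 7 of 9 below 0. Markers of excitatory neurons of cortex and hippocampus had a median of 0.386, forebrain interneurons 0.034 and midbrain dopamine neurons -0.347.

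**Figure D5:**
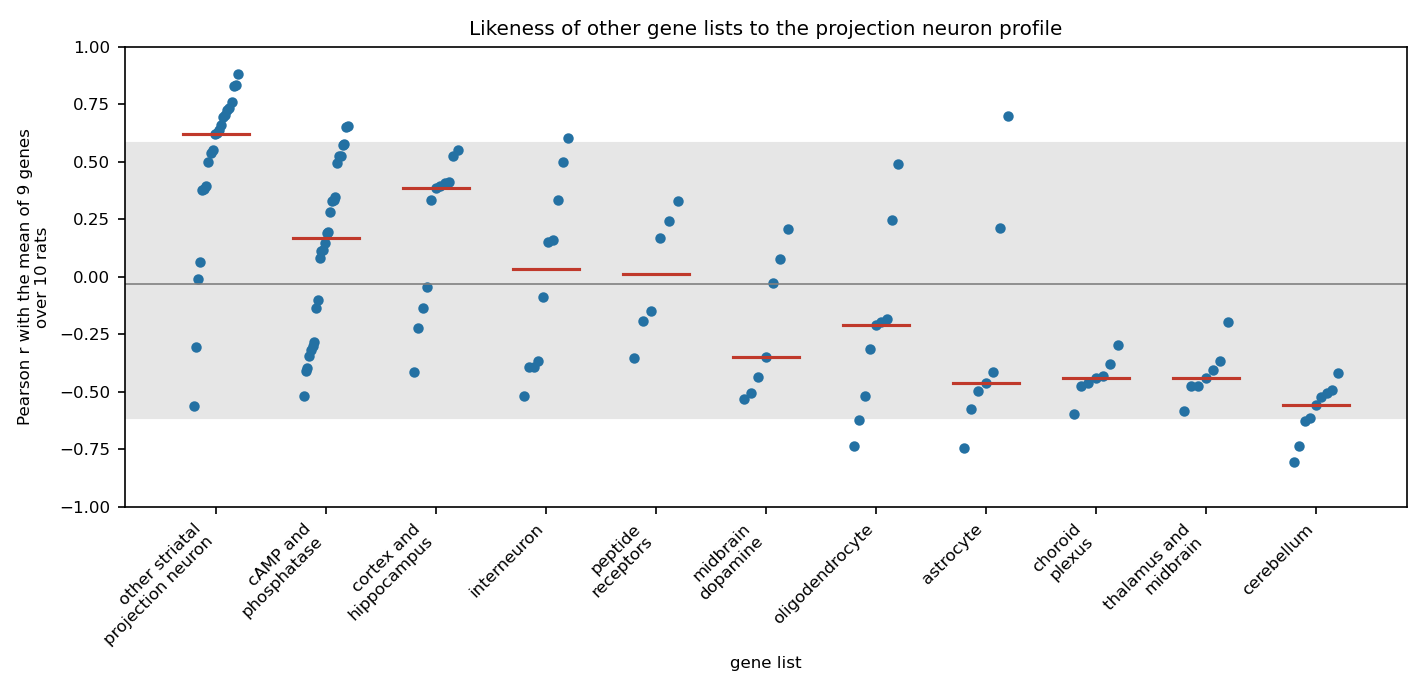
Pearson r over 10 rats between each gene and the mean of the 9 projection neuron genes (vertical axis), by gene list (horizontal axis). Points are genes, red bars list medians, the grey line the median of 14208 other genes (-0.032) and the grey band their 5th to 95th percentile (-0.612 to 0.584); other striatal genes sit highest (median 0.623) and cerebellar genes lowest (-0.556).

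In mean, 6 of 7 thalamus and midbrain markers, 6 of 7 choroid plexus markers, 5 of 7 astrocyte markers and 6 of 9 cerebellar markers were higher in DMHF rats, while 7 of 9 oligodendrocyte and 8 of 11 cortex and hippocampus markers were lower, with 0 past the test. Of 14208 other genes, 7535 were higher and 6673 (47%) lower. Because markers of a list are not independent of each other, these counts are a description. The levels of these markers overlapped between the groups. The mean standardised value of the cerebellar list ran from -1.16 to 1.14 in DMHF rats and from -0.81 to 1.01 in control rats. For thalamus and midbrain the ranges were -0.61 to 1.18 in DMHF rats and -0.99 to 0.41 in control rats, and for choroid plexus -0.56 to 1.33 in DMHF rats and -1.31 to 0.5 in control rats. For astrocytes they were -0.48 to 0.73 in DMHF rats and -1.12 to 0.34 in control rats. No marker could be called at 0, since the table starts at 5.25 and holds no detection calls. Which regions contributed how much RNA to each sample was not measured, and the part of these markers in the results for the projection neuron genes was not tested.

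None of the marker genes passed the test either. Those with the smallest limma p in the lists that moved against the profile were Gfap of astrocytes (16.1 millionths, SE 6.22, exact permutation p = 0.0317, adjusted limma p 0.876), Folr1 of choroid plexus (41.5 millionths, SE 17.4, exact p = 0.0556, adjusted limma p 0.893) and Pitx3 of midbrain dopamine neurons (5.26 millionths, SE 2.29, exact p = 0.0556, adjusted limma p 0.9). Pitx3 had a mean deposited level of 6.23, near the lowest value of 5.25. Of the 7 midbrain dopamine markers measured, 4 were lower in DMHF rats and 3 higher. Among cerebellar markers Zic1 had the smallest (25.4 millionths, SE 17.5, exact permutation p = 0.206), and among thalamus and midbrain markers Tcf7l2 (8.06 millionths, SE 5.72, exact p = 0.222).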

How the data were processed

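Right-brain total RNA of 5 DMHF and 5 control rats was labelled from 100 ng by 3' in vitro transcription and hybridised to Affymetrix arrays, per the labels' protocols. The authors deposited 1 table of 31099 probe sets, processed in R 2.7.2 per the submitters' processing notes, whose log2 values have no stated base and were taken as log2 from their range (5.25 to 14.22). The sources used here do not state the background correction, normalization, summary method or the step behind the small differences between arrays. Sample titles call the samples biological replicates but name no litter, cage, batch or scan date. The p-values set differences and correlations against the variation between these samples, which may hold such unnamed effects. The number of arrays limits the precision.

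The 57 control probe sets were left out. GEO's platform annotation gave 1 gene to 20826 probe sets, several to 436 and none to 9780. The gene identifiers of 14 of 14 probe sets described were found in the GRCr8 gene table, which changed 0 symbols. DMHF was compared with control with limma 3.58.1 in R 4.3.3 (two-sided, no covariate, adjusted p threshold 0.05 over 31042 probe sets), beside an exact permutation test. The scripts were tested on simulated data. The brightest probe set represented its gene in counts of genes. Genes named were all 14 probe sets, the 12 most like the profile, and up to 3 per list with the smallest p; Pcp2, Ebf1 and the 6 striatal genes named for their r fall outside this rule and were named after the values were seen. The members and lists were chosen with earlier results of these data known. Alternatives were quantile normalization, a replicate block, array weights, 1 probe set per gene, a common array median, a restriction to brighter probe sets, a trended robust variance, rank correlation, removal of group means, and leaving out each array.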

Additional observations from a re-analysis of the deposited data

Results flagged for a closer look

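In 4 of 28 groups of 5 rats, 1 rat lay apart from the others by Dixon's ratio of gap to range (critical value 0.71), where chance flags about 1 in 20 groups, or 1.4 of 28. The groups were the same 10 rats seen with different probe sets, so they are not independent and 1.4 is only a rough guide. All 4 flags fell on control rats. For the brighter Drd1 probe set control rat 5 stood at 29.48 millionths, above the next control rat at -3.71. For the dimmer Rgs9 probe set the same rat stood at 3.20 millionths, with the next at -0.13. For Tac1 control rat 3 stood at -9.70 millionths, below the next at 1.26. For the brighter Pdyn probe set control rat 2 stood at 11.66 millionths, above the next at -0.47. The cause was not tested.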

How the results depend on the processing

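None of the 14 probe sets was called under any alternative run. The replicate number as a block called 0 probe sets and left 12 of 14 lower in DMHF. Deviations of same-numbered rats correlated at 0.0288 to 0.273, over 0.1 for 2 of 5 numbers, and 3 DMHF rats matched their own number best. These values do not decide whether the numbers are pairs. The sample titles state no pairing, so the main test did not use the numbers. The correlations between probe sets were not rerun with the number as a block. Over all probe sets quantile normalization called 13 of 10076 that still varied, and leaving out single rats 0 to 1. Quantile normalization left 4 of the 14 varying, 2 of them lower in DMHF, with the brighter Rgs9 probe set at 46 millionths. It called 0 of 6 pairs, gave r = 0.218 (adjusted p 1) for Drd2 with the brighter Rgs9 probe set, and its 1 pair of probe sets of 1 gene had r = -0.111.

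The count of 2 called pairs became 10 of 36 with 1 probe set per gene, where fewer pairs are adjusted over. It became 35 of 91 with a common array median, which put 50.9% of all pairs of the array at r of 0.7 or more and 80.4% of other genes at r of 0.5 or more with the profile; the median r of probe sets of 1 gene was then 0.880, against 0.498 as reported. Single rats left out gave 1 (without DMHF rat 2 or 3, or control rat 3 or 5) to 5 (without control rat 1) called pairs, median same-gene r of 0.432 to 0.647, and 9 to 14 probe sets lower in DMHF. Over the alternatives the adjusted p of Drd2 with Ppp1r1b ran from 0.00429 to 0.0966, and that of the Pde10a pair from 0.001 to 0.0253. Of the 12 genes most like the profile, 4 were shared with Spearman's rho, 6 with group means removed, 4 with a common median and 4 to 10 with single rats left out. Of the 22 other striatal genes, 13 had a correlation of 0.5 or more by Spearman's rho, 21 with a common median and 14 to 16 with single rats left out.

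Array weights turned the brighter Adora2a probe set to 0.558 and the dimmer Pde10a probe set to 3.26 millionths. Leaving out single rats gave differences on both sides of 0 for Adora2a (brighter, -4.07 to 2.84, and dimmer, -0.528 to 1.35), Drd1 (dimmer, -0.138 to 1.34), Pde10a (brighter, -31.8 to 5.45, and dimmer, -20.6 to 14.2), Pdyn (brighter, -3.43 to 1.4) and Penk (-3.84 to 0.035). For both Pde10a probe sets the highest value was without control rat 5. The other probe sets stayed below 0 with single rats left out but, apart from the dimmer Pdyn probe set (-9.44 to -5.22), moved by over 1.5 times: Drd1 (brighter) lay between -17.8 (without DMHF rat 2) and -2.38 (without DMHF rat 5), Drd2 between -13.6 (without control rat 1) and -3.59 (without control rat 5), Ppp1r1b between -15.6 (without control rat 1) and -3.45 (without DMHF rat 1), and Tac1 between -4.51 (without control rat 3) and -0.877 (without DMHF rat 4). Rgs9 lay between -5.08 and -1.75 (brighter) and between -1.35 and -0.221 (dimmer), each highest without control rat 5. The causes were not tested.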
